A study of Mus musculus with 6 samples.

Results

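The cells described here are tenocytes of the lower abdominal muscle (LAM), marked by Wif1, Comp, Tnmd, Fmod, Kera and Chad. The columns of the deposited count table run through the 6 samples 30 times in file order, which gives 180 runs of columns, and the cells are the barcodes of runs 13 to 18, called column group 3. The sources used here do not say what the 30 groups of columns stand for. Of the 856 barcodes in these runs, 797 had at least 1000 unique molecular identifiers (UMIs) and at most 10% of them in mitochondrial genes, and these 797 cells were kept. They are 797 of the 53443 barcodes of the whole table that pass the same limits, and of 63647 barcodes in all.

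Single cells were sequenced from the LAM of 3 WT and 3 Aromhum mice with a droplet method that counts the 3′ end of transcripts, and each library was made from 1 mouse. All mice were males of the FVB/N strain aged 9 to 10 weeks, and the WT mice were littermates of the Aromhum mice. The Aromhum mice carry the human aromatase gene with its coding region under its own human promoters, so they make estrogen from androgen where those promoters are active, and GEO labels them as having scrotal hernia and the WT mice as controls. The tissue was minced, digested with collagenase II and dispase and passed through a filter that holds back muscle fibers, so the cells went through enzymatic digestion before their RNA was captured. The number of tenocytes in a library therefore depends on how many came free in digestion as well as on how many the muscle held.

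Tenocytes are the fibroblasts of tendon and of the connective tissue that joins muscle to tendon. They lay down parallel fibers of type I collagen and coat them with small leucine-rich proteoglycans, which set fiber thickness, and they respond to load through transcription factors such as Scx, Mkx and Egr1. Estrogen acts on a cell mainly through the receptor encoded by Esr1, and aromatase, encoded by CYP19A1, makes estrogen from androgen.

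The 6 markers of the label were at their highest level in column group 3, whereas Thbs4, a thrombospondin that the study also names for tenocytes, was not. Fmod, the proteoglycan fibromodulin, averaged 5459 CPM (counts per 1000000 UMIs of the cells, mean of 6 mice, range 3824 to 7319), Tnmd, the membrane protein tenomodulin, 2642 CPM, and Comp, a cartilage and tendon matrix protein, 2607 CPM. Wif1, a secreted Wnt antagonist, averaged 1063 CPM, Kera, the proteoglycan keratocan, 505 CPM and Chad, the collagen-binding protein chondroadherin, 334 CPM. The highest mean in any of the other 29 column groups was 317.8 CPM for Fmod, 158 CPM for Tnmd, 199.5 CPM for Comp, 21.4 CPM for Wif1, 26.2 CPM for Kera and 18.5 CPM for Chad, so each marker was 13.1 to 49.6 times higher in the tenocytes. All 797 cells had a UMI of at least 1 of the 6 markers, 758 (95.1%) of at least 3 and 212 (26.6%) of all 6. In 1500 cells drawn from column group 2, which had the highest level of the endothelial gene Cldn5, Fmod had a UMI in 3.13% and Tnmd in 0.867% of cells, against 99.6% and 98.0% of the tenocytes, with median depths of 4986.5 and 9170 UMIs. After thinning every cell to 1000 UMIs the shares were 0.467% and 0.200% against 91.5% and 82.9%. The tendon transcription factors Scx and Mkx averaged 147 and 49.1 CPM, also the highest of all column groups. Thbs4 averaged 664 CPM in the tenocytes and was higher in column groups 10 (1091 CPM) and 8 (763 CPM).

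**Figure D1:**
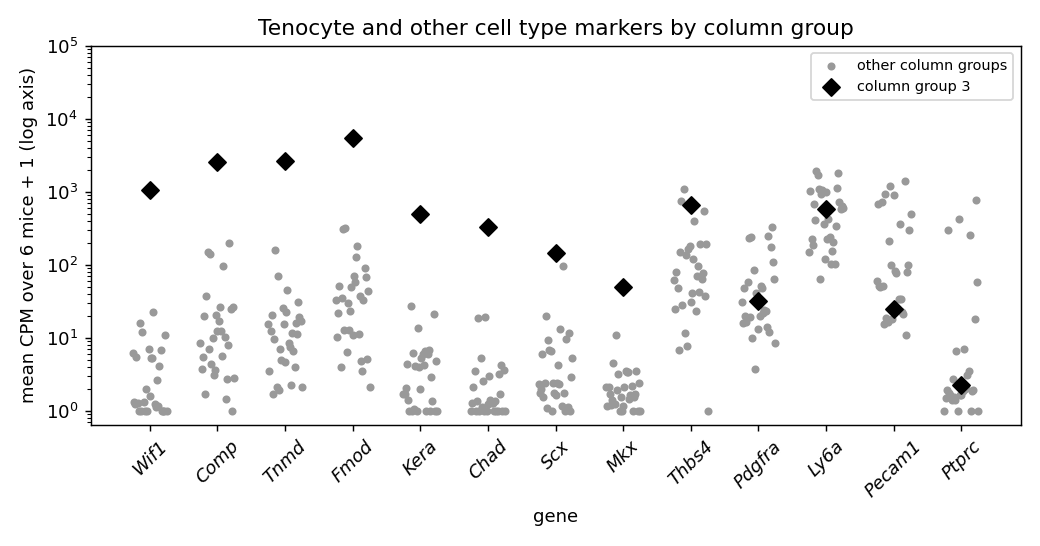
Mean CPM over 6 mice plus 1 (log axis) of 13 genes in column group 3 (diamonds) and in each of the other 29 column groups (gray points). The 6 tenocyte markers and the transcription factors Scx and Mkx sit highest in column group 3, while Thbs4 (also named for tenocytes), Pdgfra and Ly6a (progenitors), Pecam1 (endothelium) and Ptprc (leukocytes) do not.

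Beyond the 6 markers, the genes with the largest ratio of their level in the tenocytes to the highest level elsewhere were Vipr2, a receptor for vasoactive intestinal peptide (ratio 6.24), Cpxm2, a carboxypeptidase-like secreted protein (5.10), and Rxfp1, the relaxin receptor (4.61). They were followed by Col11a1, a chain of the type XI collagen that nucleates fibrils (3.57), Fibin (3.29), Pdgfc, a platelet-derived growth factor (3.27), Faim2 (3.19), Thbs2, a thrombospondin (2.92), and Dbp, a circadian transcription factor (2.78). Lox, which crosslinks collagen (2.77), Angptl1 (2.74), Prelp, another leucine-rich matrix protein (2.71), Igfbp3, a carrier of insulin-like growth factors (2.63), and Tgfbi, a matrix adhesion protein (2.49), completed the 20 genes of largest ratio. These ratios describe the cells and were not tested. The column groups of most like profile were 10, with Esr1 at means of 224 CPM in WT and 226 CPM in Aromhum mice, and 8, the group with the highest level of the progenitor gene Ly6a, with Pearson correlations of 0.967 and 0.964 of log2(mean CPM + 10) across genes, which are not independent replicates.

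The mice gave 135, 112 and 93 tenocytes in WT and 170, 105 and 182 in Aromhum animals. The summed UMIs ranged from 833471 (Aromhum mouse 2) to 2174810 (Aromhum mouse 3), and the median UMIs per cell from 6088 to 11542.5 in the same 2 mice. Libraries shared 19 to 48 barcodes per pair, at most 0.472% of the smaller library, and 0 of the shared barcodes were tenocytes in both. Human CYP19A1 had 0 UMIs in the tenocytes of each WT mouse and 21, 14 and 37 UMIs in those of Aromhum mice 1 to 3. Its level of 15.4 CPM over the pooled Aromhum tenocytes was at least 16.6-fold higher than the 0.926 CPM that 3 UMIs over the pooled WT tenocytes would give. The transgene was seen in 8.82%, 9.52% and 16.5% of the Aromhum tenocytes, and in 0.333% of the sampled endothelial cells, which pool both genotypes. With every cell thinned to 1000 UMIs the shares were 1.18%, 1.90% and 2.20%, and 0 in the endothelial sample. In the Aromhum mice its mean level was 15.5 CPM in tenocytes, 2.24 CPM in column group 2, and 8.60, 7.44 and 11.0 CPM in column groups 8, 10 and 20.

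Some libraries stood apart within the tenocytes. Aromhum mouse 1 held 55 of the 56 cells of a sub-cluster led by interferon-stimulated genes, and the summed level of 35 interferon-stimulated genes was 7140.5 CPM in that mouse and 3324 to 3794 CPM in the other 5. Aromhum mouse 3 lay near the WT mice for many of the genes below, including the tenocyte markers. In addition, WT mouse 2 had the most muscle fiber RNA in its tenocytes, with 878 CPM summed over 12 myonuclear genes against 42.0 to 128 CPM in the other mice. The counts over all genes, and those of the lists that the text describes at most length, are also given without single mice.

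The tenocytes fell into 6 sub-clusters, which were described by their leading genes and not tested. The first and largest, of 281 cells, had weak leading genes (Trmt10c, Mmp19, Tsr1, Slc7a1, Tlnrd1, Arhgap42, Ctgf and Zfp948, each 1.97 to 2.23 times the level in the other tenocytes). The second, of 218 cells, was led by Fos, Zfp36, Tnfsf9, Klf2, Socs3, Rrad, Hes1 and Atf3, mostly immediate early genes that cells switch on within minutes of a stimulus, with Fos at 7848 CPM against 1289 CPM in the other tenocytes. The third, of 143 cells, was led by Hoxa10, Ear2, Rpp25l, Lars2, Hoxc9, Zfp503, Sertad4 and Irs1, and had the highest levels of Scx (416 CPM), Fmod (9425 CPM) and Col1a1 (17075 CPM), with a median mitochondrial share of 5.80% against 3.48% to 4.36% in the other sub-clusters.

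The last 3 sub-clusters, 155 cells in all, carried genes that are not typical of tenocytes. The fourth, of 71 cells, was led by Mmp3, Dio2, Ctla2a, Pla1a, Plac8, Cd248, Il33 and Efemp1, had Pdgfra at 136 CPM against 2.09 to 24.3 CPM elsewhere, and had a median of 16030 UMIs per cell. Of these cells 40 came from Aromhum mouse 1, 14 from Aromhum mouse 2 and 2 to 7 from each of the other mice. The fifth, of 56 cells, was led by Ifit3b, Ifit1, Rsad2, Ifit3, Cd274, Usp18, Rtp4 and Gbp2, all induced by interferon. The sixth, of 28 cells, was led by the endothelial genes Cldn5, Gpihbp1, Fabp4, Cd36, Rbp7, Adgrl4, Myct1 and C1qtnf9, while its Tnmd stood at 2003 CPM, and it held 2 to 8 cells of each mouse. The genotype test and the interaction tests across genes were repeated without the 155 cells.

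Tenocytes made up 1.58%, 1.52% and 1.37% of the WT barcodes within the limits and 1.59%, 0.861% and 2.31% of the Aromhum barcodes. The genotypes overlapped, with 1.49% ± 0.107 (SD, n = 3) in WT and 1.59% ± 0.723 (SD, n = 3) in Aromhum mice (2-sided exact permutation test, p = 0.7, where 0.1 is the smallest p that 3 against 3 mice allow). The cells were chosen by their columns and not by the 6 markers of the label. Of these markers 0 passed the genotype test below with all 6 mice. Without Aromhum mouse 3, 4 passed, and 2 passed with the replicate number as a block. The difference between genotypes was 0.0946 percentage points, and it was -0.266 without Aromhum mouse 3 and 0.457 without Aromhum mouse 2.

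The comparison of Aromhum with WT mice asked which genes the tenocytes expressed differently where the muscle makes its own estrogen. UMIs were summed per mouse and compared with edgeR's quasi-likelihood test across 7293 genes, with Benjamini-Hochberg adjustment and a threshold of 0.05. In Aromhum tenocytes 12 genes were higher and 19 were lower, 0.425% of the genes tested. The 12 include CYP19A1, the transgene that marks the genotype itself. At an unadjusted p under 0.05 there were 492 higher and 557 lower genes. The values of WT and Aromhum mice did not overlap for all 31 called genes, and for 22.5% of all genes tested. The median log2 fold change of all genes was 0.00. The counts changed when 1 mouse was left out, which also left the test with fewer mice. They were 3 higher and 6 lower without WT mouse 1, 2 and 2 without WT mouse 2, 1 and 1 without WT mouse 3, 7 and 6 without Aromhum mouse 1, 4 and 3 without Aromhum mouse 2, and 143 and 111 without Aromhum mouse 3. All 31 genes kept their direction in each of these 6 fits. Without sub-cluster 4 alone 22 of the 31 were still called (C1qtnf6, Fbn1, Penk, Wisp2, Abca8a, Galnt15, Aqp5, Cnn2 and Wsb1 lost), without sub-cluster 5 all 31, and without sub-cluster 6 26. A lost call is not always a lost fold. Over all alternatives the log2 fold changes nearest to 0 were -2.85 for Penk, -1.21 for Galnt15, 3.08 for Aqp5 and 1.01 for Fbn1. They were 0.97 for C1qtnf6, 0.72 for Cnn2, -0.58 for Wsb1, -0.36 for Abca8a and 0.31 for Wisp2. Without the 155 cells of the last 3 sub-clusters 12 genes were higher and 16 lower, 18 of the 31 were still called, and the 13 lost were C1qtnf6, CYP19A1, Wisp2, Cnn2, Hspa2, Penk, Fos, Abca8a, Pou3f1, Galnt15, Sult1a1, Fabp4 and Wsb1. With the study's limits of at most 2500 genes and 5% mitochondrial UMIs per cell, 285 tenocytes remained. The study's further removal of outliers by median absolute deviation was not applied. Of 3261 genes tested 0 passed in edgeR, and 274 had an unadjusted p under 0.05.

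Adamtsl2, a protein that binds fibrillin and limits TGF-β, stood at 13.6, 14.1 and 16.2 CPM in WT mice 1 to 3 and 52.1, 50.4 and 58.9 CPM in Aromhum mice 1 to 3. Its 3 Aromhum values lay close together and well above the WT values (log2 fold change 1.77 ± 0.21 SE, adjusted p = 0.00941, edgeR). Fbn1, the fibrillin that forms microfibrils and to which Adamtsl2 binds, had 136, 148 and 92.7 CPM in WT and 364, 365 and 316 CPM in Aromhum mice. Every Aromhum mouse was far above every WT mouse (log2 fold change 1.34 ± 0.18 SE, adjusted p = 0.0126). Mmp23, a membrane-bound matrix metalloproteinase, was at 159, 154 and 152 CPM in WT and 378, 367 and 343 CPM in Aromhum mice, with little spread within either genotype (log2 fold change 1.10 ± 0.13 SE, adjusted p = 0.00941).

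C1qtnf6, a secreted protein related to complement C1q, was at 42.6, 29.9 and 33.4 CPM in WT and 103, 99.6 and 115 CPM in Aromhum mice. Every Aromhum mouse was above every WT mouse (log2 fold change 1.47 ± 0.18 SE, adjusted p = 0.0105). Wisp2, a secreted CCN family protein, had 190.1, 213 and 186 CPM in WT and 424, 488 and 349 CPM in Aromhum mice, and the Aromhum mice were again all higher (log2 fold change 0.97 ± 0.15 SE, adjusted p = 0.0290). Cnn2, an actin-binding calponin, was at 38.4, 41.3 and 41.0 CPM in WT and 72.4, 84.0 and 88.3 CPM in Aromhum mice. Its values were close within each genotype and separate between them (log2 fold change 0.90 ± 0.16 SE, adjusted p = 0.0469).

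Slpi, Chrdl2, Aqp5 and Vcam1 had the largest fold changes of the called mouse genes. Slpi, a secreted inhibitor of leukocyte proteases encoded on chromosome 2 (164354070 to 164389095, mm10, minus strand), had the largest fold of the called mouse genes, with 1.71, 3.51 and 1.08 CPM in WT mice 1 to 3 and 125, 58.8 and 132 CPM in Aromhum mice 1 to 3. All 3 Aromhum mice were far above WT (log2 fold change 5.47 ± 0.48 SE, adjusted p = 0.00330), but the gene missed the threshold when the 9 tenocytes marked as doublets were left out, of which 0 were in WT mice 2 and 3 (log2 fold change 4.80, adjusted p = 0.0555, edgeR). Slpi was also at a higher level in the Aromhum cells of column group 2, at 3.59, 2.30 and 3.50 CPM in WT and 93.7, 249 and 88.5 CPM in Aromhum mice, and column group 20, the group with the highest level of the mesothelial gene Msln, held it at a mean of 20379 CPM in WT and 20040 CPM in Aromhum mice, with 134, 147 and 60 WT and 592, 898 and 604 Aromhum cells. What part of the Slpi UMIs in tenocytes came from free RNA of other cells was not tested. A UMI of Slpi was found in 13.5% to 15.4% of Aromhum tenocytes per mouse and 1.08% to 2.68% of WT tenocytes, and in 4.07% of the sampled endothelial cells of both genotypes, which were shallower. With every cell thinned to 1000 UMIs the shares were 5.88%, 0.952% and 1.10% in Aromhum mice 1 to 3, 0 to 0.893% in WT mice and 1.47% in the endothelial sample, so at equal depth Aromhum mice 2 and 3 were not above that sample and their shares are not read as expression.

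Chrdl2, a secreted antagonist of bone morphogenetic proteins, was at 9.38, 0.878 and 0 CPM in WT and 162, 279.6 and 37.2 CPM in Aromhum mice. Aromhum mouse 3 was the lowest of its group but above every WT mouse (log2 fold change 5.22 ± 0.91 SE, adjusted p = 0.0469). Over the alternatives the log2 fold change of Chrdl2 ran from 4.63 to 7.94 and that of Slpi from 4.80 to 6.04, so their order was not fixed. Aqp5, a water channel, had 2.56, 1.76 and 1.08 CPM in WT and 121, 69.6 and 17.5 CPM in Aromhum mice, highest in Aromhum mouse 1 and lowest of its group in Aromhum mouse 3 (log2 fold change 5.03 ± 0.87 SE, adjusted p = 0.0469). A UMI of Aqp5 was found in 17.6%, 12.4% and 1.10% of the tenocytes of Aromhum mice 1 to 3. The WT shares were 1.08% to 2.22%, so the value of Aromhum mouse 3 rested on few cells. Vcam1, an adhesion protein for leukocytes, was at 19.6, 3.51 and 5.39 CPM in WT and 234, 136 and 79.5 CPM in Aromhum mice. Its lowest Aromhum value was still above the highest WT value (log2 fold change 3.80 ± 0.54 SE, adjusted p = 0.0191). Chrdl2 and Aqp5 were at means of 426 and 296 CPM in the Aromhum cells of column group 10, more than in the tenocytes. The remaining higher gene was Hist1h2bc, a histone gene whose transcript can be polyadenylated, with 20.5, 23.7 and 36.6 CPM in WT and 120.3, 115 and 60.2 CPM in Aromhum mice (log2 fold change 1.74 ± 0.31 SE, adjusted p = 0.0469).

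**Figure D2:**
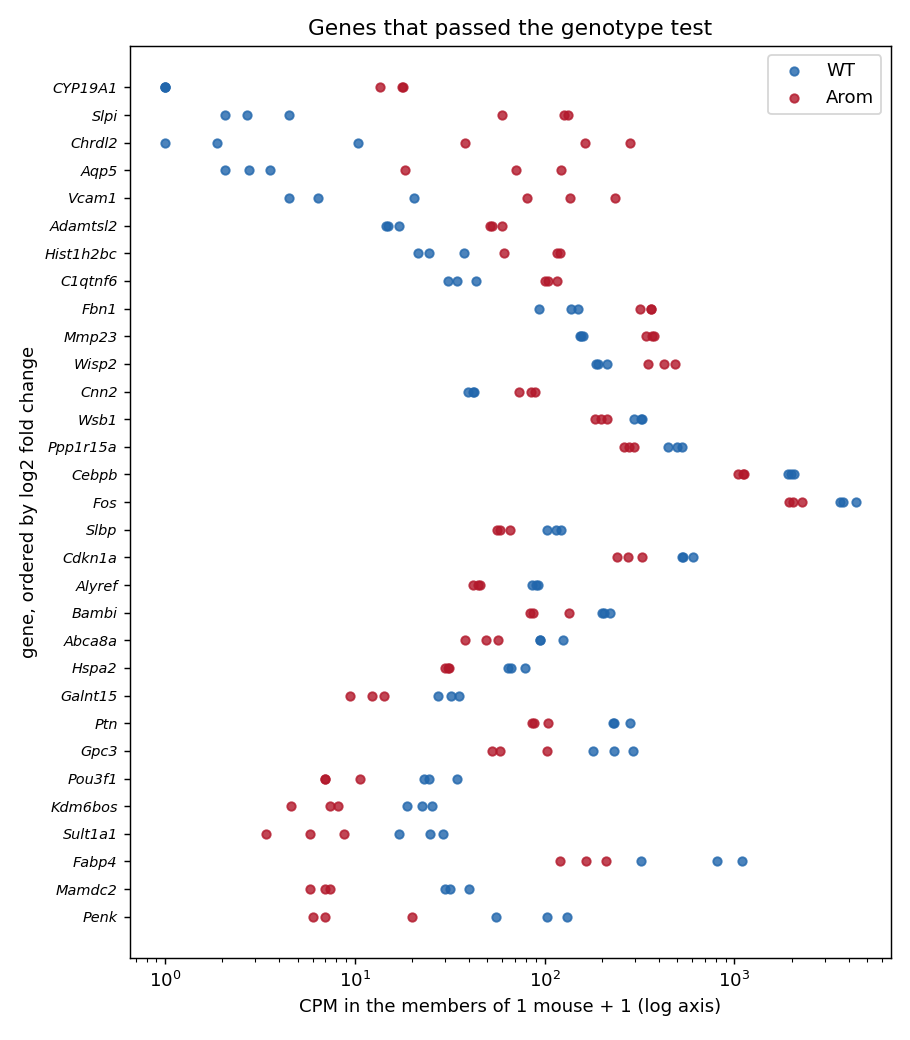
CPM plus 1 (log axis) of the 31 genes that passed the genotype test, in the tenocytes of each WT (blue) and Aromhum (red, Arom) mouse, ordered by log2 fold change. For each gene the 3 Aromhum points lie on one side of the 3 WT points, and Slpi, Chrdl2, Aqp5 and Vcam1 have the largest log2 fold changes among mouse genes, 3.80 to 5.47.

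Among the lower genes, Ptn, the growth factor pleiotrophin (chromosome 6, 36714929 to 36810220, minus strand), stood at 280.5, 231 and 227 CPM in WT mice 1 to 3 and 87.4, 103 and 84.6 CPM in Aromhum mice 1 to 3. The ranges of both genotypes were narrow and far apart (log2 fold change -1.56 ± 0.15 SE, adjusted p = 0.00342). Mamdc2, a secreted protein with MAM domains, was at 29.0, 30.7 and 38.8 CPM in WT and 4.79, 6.0 and 6.44 CPM in Aromhum mice, about as sharply separated (log2 fold change -2.60 ± 0.27 SE, adjusted p = 0.00575). Penk, which encodes the opioid precursor proenkephalin, had 54.6, 102 and 130.4 CPM in WT and 19.1, 6.0 and 5.06 CPM in Aromhum mice. Aromhum mouse 1 was the highest of its group and still below the lowest WT mouse (log2 fold change -3.31 ± 0.46 SE, adjusted p = 0.0179).

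Gpc3, a cell surface proteoglycan that modulates hedgehog and growth factor signals, was at 179.9, 231 and 291 CPM in WT and 52.1, 57.6 and 102 CPM in Aromhum mice (log2 fold change -1.82 ± 0.28 SE, adjusted p = 0.0269). Aromhum mouse 3 was nearest to the WT range. Bambi, a decoy receptor for TGF-β and bone morphogenetic proteins, was at 200.4, 221 and 205 CPM in WT and 82.6, 86.4 and 133 CPM in Aromhum mice, also with Aromhum mouse 3 highest of its group (log2 fold change -1.16 ± 0.20 SE, adjusted p = 0.0469). Abca8a, a membrane transporter, had 124, 94.0 and 93.8 CPM in WT and 47.9, 37.2 and 56.1 CPM in Aromhum mice (log2 fold change -1.23 ± 0.20 SE, adjusted p = 0.0336), without overlap.

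Cebpb, a transcription factor of acute and inflammatory responses, was at 1998, 1922 and 2071 CPM in WT mice 1 to 3 and 1112, 1117 and 1049.7 CPM in Aromhum mice 1 to 3. The mice of a genotype lay close together, and the genotypes were far apart (log2 fold change -0.99 ± 0.13 SE, adjusted p = 0.0126). Fos, a subunit of the AP-1 transcription factor, was at 3617, 3751 and 4369 CPM in WT and 2037, 1949.7 and 2282 CPM in Aromhum mice, every WT mouse being above every Aromhum mouse (log2 fold change -1.03 ± 0.16 SE, adjusted p = 0.0269). Cdkn1a, which encodes the cyclin-dependent kinase inhibitor p21, had 529, 535 and 606 CPM in WT and 274, 241 and 325 CPM in Aromhum mice (log2 fold change -1.11 ± 0.16 SE, adjusted p = 0.0249). Ppp1r15a, a phosphatase subunit induced by the unfolded protein response, was at 448, 495 and 527 CPM in WT and 293, 262 and 276 CPM in Aromhum mice (log2 fold change -0.94 ± 0.14 SE, adjusted p = 0.0257).

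Hspa2, a heat shock protein, had 65.6, 63.3 and 77.6 CPM in WT and 28.7, 30.0 and 30.3 CPM in Aromhum mice, Aromhum mice being almost equal (log2 fold change -1.32 ± 0.17 SE, adjusted p = 0.0122). Alyref, an mRNA export factor, was at 91.2, 85.2 and 89.4 CPM in WT and 43.7, 40.8 and 44.6 CPM in Aromhum mice (log2 fold change -1.15 ± 0.15 SE, adjusted p = 0.0122), and Slbp, which binds the stem loop of histone mRNA, at 114, 120.4 and 102 CPM in WT and 55.1, 64.8 and 57.5 CPM in Aromhum mice (log2 fold change -1.06 ± 0.14 SE, adjusted p = 0.0126). Column group 2 had lower means of both genes in Aromhum than in WT mice, 144 CPM against 219.5 CPM for Alyref and 146 CPM against 173 CPM for Slbp. The other genes that fell were Kdm6bos, named as a transcript opposite to Kdm6b whose reads cannot be told apart from that gene's where strand was not used in counting, the transcription factor Pou3f1, the glycosyltransferase Galnt15, the sulfotransferase Sult1a1, the ubiquitin ligase adaptor Wsb1 and Fabp4, with log2 fold changes from -2.27 (Fabp4) to -0.78 (Wsb1).

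Fabp4, a fatty acid carrier of capillary endothelium and fat, moved together with endothelial genes. It was at 323, 806 and 1089 CPM in WT and 165, 119.98 and 211 CPM in Aromhum mice in tenocytes (log2 fold change -2.27 ± 0.40 SE, adjusted p = 0.0469) and at 6549 CPM in the 28 cells with endothelial genes against 59.9 CPM in the other tenocytes. Without those 28 cells the call was lost and the log2 fold change was -0.58 (adjusted p = 0.445, edgeR). The calls of Pou3f1, Sult1a1, Cnn2 and Wsb1 were lost in that fit too (adjusted p = 0.0571, 0.0781, 0.0775 and 0.0531, edgeR), but their log2 fold changes of -1.89, -1.70, 0.79 and -0.77 stayed near those with all cells, -1.89, -2.12, 0.90 and -0.78. In the WT cells of column group 2 the means were 367 CPM for Hspa2, 123 CPM for Sult1a1 and 62.5 CPM for Pou3f1, against 68.8, 22.7 and 26.4 CPM in WT tenocytes. Cdkn1a (2596 against 556 CPM), Ppp1r15a (1086 against 490 CPM), Alyref, Slbp, Galnt15 and Wsb1 were also higher there than in WT tenocytes. The other genes called lower, Ptn, Mamdc2, Cebpb, Penk, Fos, Gpc3, Abca8a, Kdm6bos and Bambi, were at lower means there. The summed level of 10 endothelial markers moved with Fabp4, from 130 to 656 CPM in WT and 57.6 to 108 CPM in Aromhum tenocytes, and each of these 10 markers had UMIs in the tenocytes. Column group 2 held Fabp4 at means of 17459 CPM in WT and 16291 CPM in Aromhum mice.

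The 6 tenocyte markers had lower means in Aromhum mice, with 0 of 6 called by edgeR and 4 of 6 lower at an unadjusted p under 0.05. Over all 7293 genes tested 0.165% were called higher and 0.261% lower, and 6.75% were higher and 7.64% lower at an unadjusted p under 0.05. A positive log2 fold change was found for 3652 and a negative one for 3641, and the counts of each list below stand beside these. Without Aromhum mouse 3, 143 of 7598 genes were called higher and 111 lower. At an unadjusted p under 0.05, 625 were higher and 705 lower in that fit. List counts without that mouse stand beside these instead. The 6 markers had a median log2 fold change of -0.68, against 0.00 for all genes tested. Wif1 was at 838, 1797 and 2079.8 CPM in WT mice 1 to 3 and 302, 292 and 1069 CPM in Aromhum mice 1 to 3. WT mouse 1 and Aromhum mouse 3 overlapped (log2 fold change -1.61 ± 0.51 SE, adjusted p = 0.184). Tnmd had 2933, 3093 and 3493 CPM in WT and 1775, 1649 and 2910.1 CPM in Aromhum mice, where all Aromhum values were below WT but Aromhum mouse 3 came within 1% of the lowest (log2 fold change -0.70 ± 0.23 SE, adjusted p = 0.191).

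Comp was at 2958, 3272 and 3031 CPM in WT and 1629, 1579 and 3174 CPM in Aromhum mice, with Aromhum mouse 3 inside the WT range (log2 fold change -0.65 ± 0.26 SE, adjusted p = 0.297). Chad had 242, 674 and 429 CPM in WT and 101, 75.6 and 482 CPM in Aromhum mice (log2 fold change -1.11 ± 0.62 SE, adjusted p = 0.449), and Kera 469, 611 and 605 CPM in WT and 395, 469 and 481 CPM in Aromhum mice (log2 fold change -0.45 ± 0.16 SE, adjusted p = 0.235). Fmod was at 4851, 5672 and 6666 CPM in WT and 4424, 3824 and 7319 CPM in Aromhum mice, and its highest value was that of Aromhum mouse 3 (log2 fold change -0.26 ± 0.25 SE, adjusted p = 0.703). Without Aromhum mouse 3 Wif1, Comp, Tnmd and Chad passed, with log2 fold changes of -2.54, -1.08, -1.02 and -2.45 and adjusted p values of 0.00220, 0.00372, 0.00600 and 0.00458 (edgeR). With the replicate number as a block and all 6 mice, Wif1 and Tnmd passed (adjusted p = 0.00910 and 0.0254, edgeR). Of the 20 alternatives run, Wif1 passed in 4, Tnmd in 3, Comp in 2, Chad in 1 and Fmod and Kera in 0.

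**Figure D3:**
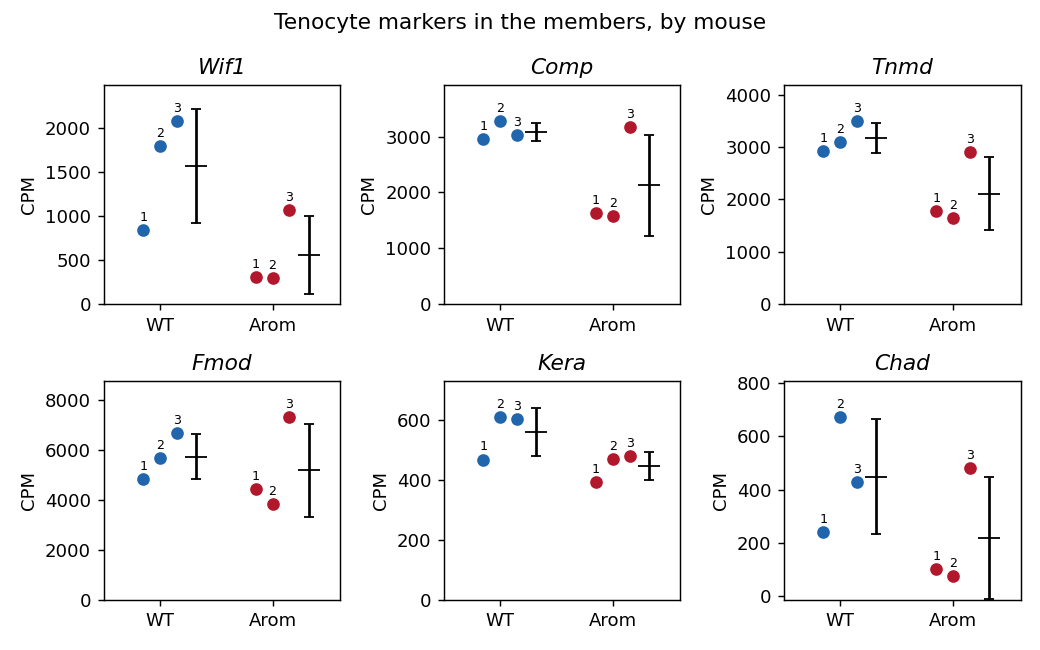
CPM of the 6 tenocyte markers in the tenocytes of each WT (blue) and Aromhum (red) mouse, with the mouse number above each point and the mean ± SD of 3 mice beside it in black. Aromhum mice 1 and 2 sit below the WT mice for Wif1, Comp, Tnmd and Chad, and Aromhum mouse 3 sits near or within the WT values.

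The tendon transcription factors were mixed. Of 22 listed genes 14 were tested, 6 with a positive and 8 with a negative log2 fold change, and 0 were called (0 higher and 4 lower at an unadjusted p under 0.05, against 6.75% and 7.64% of all genes, median -0.29). The calls were 3 of 17, all lower, without Aromhum mouse 3 (111 of 7598 over all genes) and 0 without any other mouse. The 3 of highest level were Egr1, a load-responsive zinc finger factor, Klf4 and Klf2, which also belong to the immediate early list. Egr1 had 1969, 1847 and 2276 CPM in WT and 1292, 1308 and 1370.2 CPM in Aromhum mice, separate between genotypes but not called (log2 fold change -0.74 ± 0.15 SE, adjusted p = 0.0662). Scx, the factor that specifies tendon, had 109.98, 65.9 and 185 CPM in WT and 148, 126 and 244 CPM in Aromhum mice, and its genotypes overlapped (log2 fold change 0.42 ± 0.36 SE, adjusted p = 0.647). Mkx, another tendon factor, was at 36.7, 48.3 and 42.0 CPM in WT and 53.3, 57.6 and 57.0 CPM in Aromhum mice (log2 fold change 0.28 ± 0.17 SE, adjusted p = 0.477).

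Fibrillar collagen genes had positive fold changes. All 12 fibrillar and FACIT collagen genes tested, of 21 listed, had a positive log2 fold change, with a median of 0.54, but 0 passed the test (5 higher and 0 lower at an unadjusted p under 0.05, edgeR, against 6.75% and 7.64% of all genes). Summed over the list, the level was 24337, 23319.6 and 25415 CPM in WT and 32896, 32001 and 42998 CPM in Aromhum mice, and the genotypes did not overlap. Without single mice 0 or 1 of the 12 were called and the median was 0.35 to 0.59, and without sub-cluster 4 it was 0.39, with 2 of 12 higher at an unadjusted p under 0.05. Over all genes of the fit without sub-cluster 4, 387 of 6967 were higher at that unadjusted p. Col1a2, a chain of type I collagen, was at 10158, 8939.5 and 10303 CPM in WT and 13285, 12905 and 16724 CPM in Aromhum mice (log2 fold change 0.42 ± 0.17 SE, adjusted p = 0.301). Col3a1, the fine-fibril collagen of healing tissue, had 2646, 2994 and 2426 CPM in WT and 4309, 4769 and 4302 CPM in Aromhum mice, with both genotypes narrow and separate (log2 fold change 0.61 ± 0.14 SE, adjusted p = 0.0898). Col1a1 was at 7889, 8006 and 9344 CPM in WT and 11111, 9554 and 15943 CPM in Aromhum mice (log2 fold change 0.42 ± 0.22 SE, adjusted p = 0.411), and Col5a1, which limits fibril diameter, at 149, 184 and 121 CPM in WT and 276, 317 and 295 CPM in Aromhum mice (log2 fold change 0.84 ± 0.16 SE, adjusted p = 0.0629).

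Genes that process and crosslink collagen had the same sign in 25 of 29 tested (of 31 listed), with a median log2 fold change of 0.23, 0 called and 9 higher and 0 lower at an unadjusted p under 0.05 by edgeR, against 6.75% and 7.64% of all genes, of which 3652 of 7293 were positive. Leaving out Aromhum mouse 3 gave 2 higher and 1 lower call, and without single mice 5 to 10 were higher at an unadjusted p under 0.05. Over all genes 381 to 625 were higher at that unadjusted p in the fits without single mice. The nearest to the threshold was Adamts2, the enzyme that removes the N-propeptide of procollagen, at 727, 632 and 617 CPM in WT and 1173, 1188 and 1205 CPM in Aromhum mice. The groups were tight and separate (log2 fold change 0.73 ± 0.13 SE, adjusted p = 0.0524). Plod2, a lysyl hydroxylase for crosslinks, had 61.4, 72.0 and 78.7 CPM in WT and 293, 221 and 108 CPM in Aromhum mice (log2 fold change 1.42 ± 0.32 SE, adjusted p = 0.0852). The 3 genes of highest level, Pcolce, Lox and Serpinh1, which help to cleave, crosslink and fold collagen, had log2 fold changes of 0.12, 0.12 and 0.22 and did not pass. Of 10 other collagens tested, among them the chains Col6a1, Col6a2 and Col6a3 of microfibrillar collagen at the highest levels, 0 were called (0 higher and 2 lower at an unadjusted p under 0.05, edgeR) and the median was -0.04.

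The proteoglycans were lower in more cases than higher. Of 14 tested (21 listed), 3 had positive and 11 negative log2 fold changes, the median was -0.26 and 0 were called (1 higher and 4 lower at an unadjusted p under 0.05, edgeR, against 6.75% and 7.64% of all genes, of which 3641 of 7293 were negative). Without Aromhum mouse 3, 1 was called higher and 3 lower, with 7 lower at an unadjusted p under 0.05. Over all genes of that fit 111 of 7598 were called lower and 705 were lower at that unadjusted p. Without any other mouse 0 of the list were called and 1 to 3 were lower at that unadjusted p, against 397 to 545 over all genes of those fits. Dcn, the proteoglycan decorin and the most abundant of them, had 63813, 60084 and 51272 CPM in WT and 37938, 36957 and 46545 CPM in Aromhum mice, without overlap (log2 fold change -0.65 ± 0.18 SE, adjusted p = 0.136). Bgn, its relative biglycan, was at 3315, 3141 and 3514 CPM in WT and 3024, 3161 and 4155 CPM in Aromhum mice, with overlap (log2 fold change -0.07 ± 0.17 SE, adjusted p = 0.901). Vcan, the large proteoglycan versican, was at 49.4, 48.3 and 53.9 CPM in WT and 123, 166 and 81.4 CPM in Aromhum mice (log2 fold change 1.13 ± 0.23 SE, adjusted p = 0.0691).

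Among 12 elastic fiber genes tested, Fbn1 was called and the median was 0.13. Fbn1 did not pass without sub-cluster 4 (log2 fold change 1.19, adjusted p = 0.0528, edgeR) and passed without sub-clusters 4, 5 and 6 (log2 fold change 1.27, adjusted p = 0.0218, edgeR). Mfap4, Mfap5 and Eln were at the highest levels of that list, and the log2 fold change of Mfap4 was 0.00. Of 42 matricellular and glycoprotein genes tested, Wisp2 was called (6 higher and 5 lower at an unadjusted p under 0.05, median -0.03). Its 3 genes of highest level were Sparc, a collagen chaperone of the matrix (15693 CPM on average), Igfbp7 (3459 CPM) and Abi3bp (2966 CPM). Of 27 matrix proteases and inhibitors tested, Mmp23 was called, 9 were higher and 2 lower at an unadjusted p under 0.05, and the median was 0.10, with Serpinf1, Timp2 and Ctsl at the highest levels. Of 31 tested without Aromhum mouse 3, 11 were called higher and 1 lower, with 14 higher at an unadjusted p under 0.05. Over all genes that fit called 143 of 7598 higher and 111 lower, with 625 higher at an unadjusted p under 0.05. Without any other mouse 0 or 1 of the list were called.

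**Figure D4:**
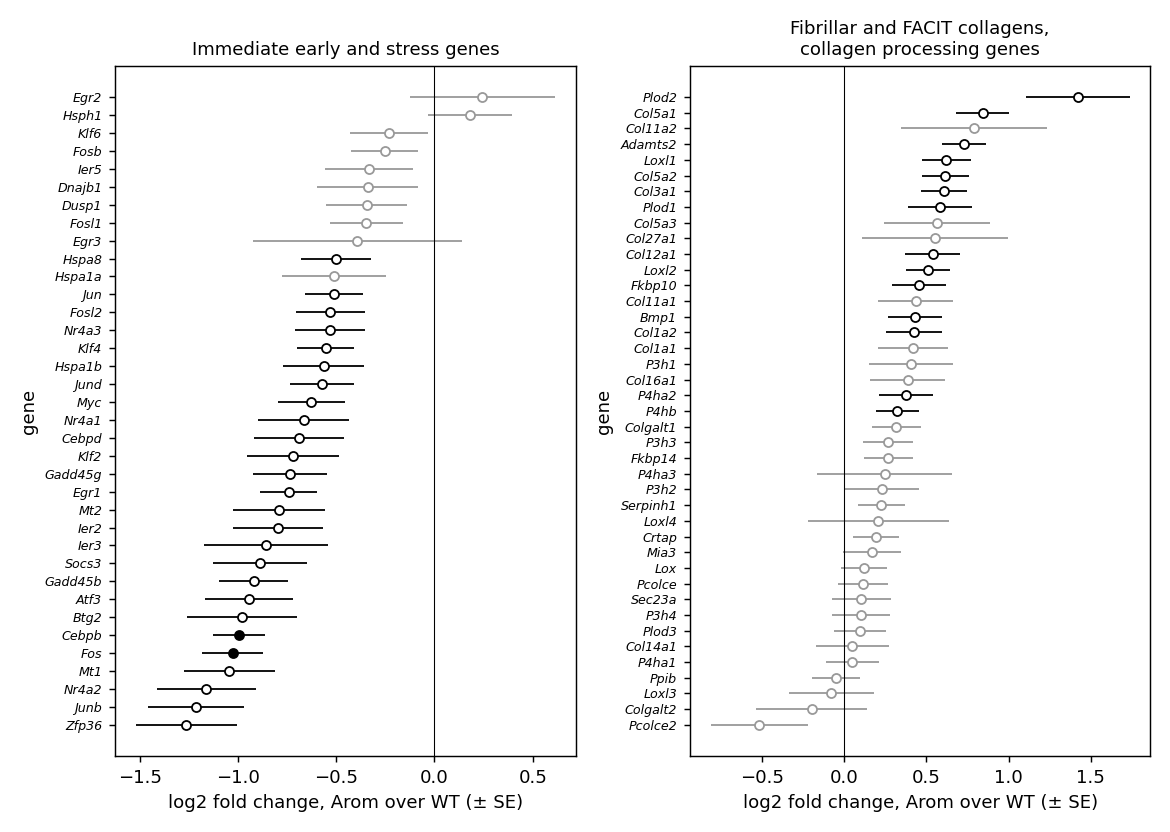
Log2 fold change (Aromhum over WT, ± SE, 6 mice) of each gene tested in the list of immediate early and stress genes (left) and in the 2 collagen lists (right). Filled symbols passed the adjusted threshold (Cebpb and Fos), black ones had an unadjusted p under 0.05, gray ones neither, and most genes lie left of 0 on the left and right of 0 on the right.

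Immediate early and stress genes, the Fos and Jun families, metallothioneins and heat shock proteins among them, had lower levels in Aromhum tenocytes in nearly all cases. All 36 listed genes were tested, 34 had a negative and 2 a positive log2 fold change, 26 were lower and 0 higher at an unadjusted p under 0.05, and 2 (Cebpb and Fos) passed, against 0.261% of all genes called lower. The median was -0.65, against 0.00 over all genes. Without single mice 19 to 29 were lower at an unadjusted p under 0.05, 0 to 13 were called and the median was -0.78 to -0.49, and without the 155 cells 25 of 34 were lower at an unadjusted p under 0.05. Over all genes 397 to 705 were lower at that unadjusted p in the fits without single mice. Without the 155 cells 436 of 6333 were. Called lower were 16 with DESeq2 (95 of 14768 over all genes) and 12 with no filter on low counts (151 of 14768). With the replicate number as a block 21 were called lower (195 of 7293 over all genes). The summed level was 53840, 50272 and 62995 CPM in WT and 35364, 31267 and 38207 CPM in Aromhum mice, without overlap. Mt1, a metallothionein and the most abundant member, had 8343, 10218 and 13098 CPM in WT and 4194, 5795 and 6785 CPM in Aromhum mice (log2 fold change -1.04 ± 0.23 SE, adjusted p = 0.0826), and Hspa8, a chaperone, 2955, 2470.3 and 2933 CPM in WT and 2508, 1734 and 2168 CPM in Aromhum mice (log2 fold change -0.50 ± 0.18 SE, adjusted p = 0.238). Junb, another AP-1 subunit, was at 2733, 2740.02 and 3607 CPM in WT and 1703, 937 and 1602 CPM in Aromhum mice (log2 fold change -1.21 ± 0.24 SE, adjusted p = 0.0677).

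These genes respond to digestion of tissue as well as to signals in it, and sub-cluster 2 was built on them, so its size was not compared between genotypes. Fos was at means of 3912 CPM in WT and 2089.9 CPM in Aromhum tenocytes, 1886 and 859 CPM in column group 8, 4921 and 1261 CPM in column group 10, and 2545 and 2153.5 CPM in the endothelial column group 2. The part of digestion in the difference was not tested. The study processed a WT mouse and an Aromhum littermate on each date, so every day held both genotypes. The labels do not say which WT and Aromhum library were prepared on the same day. No value within a day can therefore be given, and the main test did not use the pairing.

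Parts of the promoters of the 2 called members, Fos and Cebpb, are shown for a short motif that many immediate early genes share. The motif TGACG, the core of the cyclic AMP response element, was searched on both strands (as TGACG or CGTCA) in the 250 bases before each RefSeq start in GRCm38.p6, the mm10 build. It was present in 17.9% of 27025 promoters, in 14 of the 29 promoters found for the 36 immediate early and stress genes (48.3%), in 7 of the 13 found for the 19 lower genes (53.8%) and in 0 of the 7 found for the 12 higher genes. Those 7 promoters are too few to tell 0 from the 17.9%. The windows below are on the plus strand, are 30 bases long and have the motif in capitals.
Fos, chr12:85473812-85473841: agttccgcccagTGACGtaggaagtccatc
Fos, chr12:85473749-85473778: ggggcgtagagtTGACGacagagcgcccgc
Cebpb, chr2:167688885-167688914: gggcggcgggaggggccccagcgTGACGca
Cebpb, chr2:167688850-167688879: gtggccgggcaaTGACGcgcaccgaccggg
Cebpb, chr2:167688723-167688752: ggggcgggctggCGTCAcccgcgtccgtgg
The Fos motifs begin 66 and 129 bases and the Cebpb motifs 7, 53 and 180 bases before the start. A full palindromic estrogen response element was present in 17 of the 27025 promoters (0.0629%) and in 0 of those found for the called genes. At so low a share, 0 among the 7 and 13 promoters found says nothing about these genes. These matches describe the letters of the windows, and whether a factor binds there was not tested.

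Esr1, the estrogen receptor α, had 14.5, 13.2 and 8.62 CPM in WT mice 1 to 3 and 68.2, 58.8 and 21.6 CPM in Aromhum mice 1 to 3. All Aromhum values were above WT, Aromhum mouse 3 least so, and the gene did not pass (log2 fold change 1.85 ± 0.43 SE, adjusted p = 0.0898). Greb1, an estrogen-induced coactivator, was at 6.82, 8.78 and 0 CPM in WT and 31.1, 55.2 and 11.0 CPM in Aromhum mice (log2 fold change 2.29 ± 0.71 SE, adjusted p = 0.175). Of 18 genes of estrogen and androgen action tested, CYP19A1 was called, 4 were higher and 1 lower at an unadjusted p under 0.05, and the median was -0.04. That call is the transgene, which marks the genotype itself, and not a mouse gene. Of 22 tested without Aromhum mouse 3, 8 were called higher, CYP19A1 among them, and 1 lower, with a median of 0.18. Over all genes that fit called 143 of 7598 higher and 111 lower. Without any other mouse 0 or 1 of the list were called. Cilp, a matrix protein, and Nr3c1, the glucocorticoid receptor, were among the members of highest level. In column group 10 Greb1 was at means of 96.7 CPM in WT and 165.8 CPM in Aromhum mice.

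Of 35 genes that the study ties to fibrosis or to its hernia-associated fibroblasts, 32 were tested. The study chose them on these samples, so their direction is not independent evidence. Wisp2 and Aqp5 were called higher, against 0.165% of all genes tested, 21 were higher and 0 lower at an unadjusted p under 0.05, against 6.75% and 7.64% of all genes, and the median log2 fold change was 1.05. Timp1, a metalloproteinase inhibitor, had 83.6, 87.8 and 52.8 CPM in WT and 339, 427 and 148 CPM in Aromhum mice (log2 fold change 1.88 ± 0.34 SE, adjusted p = 0.0524). Mmp3, the metalloproteinase stromelysin, was uneven, with 6.82, 19.3 and 0 CPM in WT and 429, 214 and 0.920 CPM in Aromhum mice, and its genotypes overlapped, Aromhum mouse 3 being near 0 (log2 fold change 4.41 ± 1.38 SE, adjusted p = 0.176). The cells of sub-cluster 4 (40, 14 and 4 in Aromhum mice 1 to 3) and the summed macrophage and monocyte markers (258.5, 470 and 22.1 CPM) were likewise lowest in Aromhum mouse 3. Without sub-cluster 4, 29 genes of the list were tested, 1 was called, 10 were higher and 0 lower at an unadjusted p under 0.05, and the median was 0.56. Over all genes of that fit 387 of 6967 were higher and 467 lower at that unadjusted p. In that fit Wisp2 no longer passed (log2 fold change 0.75, adjusted p = 0.104, edgeR) and Aqp5 did not reach the filter on low counts. The part of the macrophage and monocyte markers in these values was not tested. Without the 155 cells of the last 3 sub-clusters 2 of 28 were called, Aqp5 among them (log2 fold change 3.08, adjusted p = 0.0319, edgeR) but not Wisp2 (0.78, adjusted p = 0.113), 12 were higher at an unadjusted p under 0.05 and the median was 0.46. Over all genes of that fit 358 of 6333 were higher at that unadjusted p. Without single mice 0 to 18 were called, the highest count being that without Aromhum mouse 3, where 143 of 7598 genes were called higher. Of the 11 genes the study names for tenocytes, chosen on these samples too, 0 were called (0 higher and 4 lower at an unadjusted p under 0.05, edgeR), and the median was -0.26. Leaving out Aromhum mouse 3 gave 4 lower calls, and leaving out any other mouse 0.

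Pathway lists gave few calls. In the Wnt pathway 23 of 65 listed genes were tested, 0 were called (3 higher and 3 lower at an unadjusted p under 0.05, edgeR) and the median was -0.09. Its members of highest level were the secreted antagonists Sfrp4, Sfrp2 and Wif1. Sfrp4 had 1099, 807 and 383 CPM in WT and 1805, 1472 and 1533 CPM in Aromhum mice, without overlap (log2 fold change 0.96 ± 0.30 SE, adjusted p = 0.181), and Sfrp2 1559, 782 and 839 CPM in WT and 1294, 1098 and 808 CPM in Aromhum mice (log2 fold change -0.11 ± 0.27 SE, adjusted p = 0.895). In the TGF-β and BMP pathway 38 genes were tested, Chrdl2 was called in the list, 7 were higher and 7 lower at an unadjusted p under 0.05 and the median was -0.08. Bambi, called lower among all genes, was not on that list. The list's members of highest level were Id3, Fstl1 and Nbl1. The calls became 3 higher and 3 lower without Aromhum mouse 3.

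Among 29 genes of mechanosensing and adhesion, Cnn2 was called, 22 had a positive log2 fold change and the median was 0.14, with Cd44, Gja1 and Itgb1 at the highest levels. The 9 genes of the insulin-like growth factor system had 0 calls (3 higher and 1 lower at an unadjusted p under 0.05, edgeR) and a median of 0.02, with Igfbp6, Igfbp7 and Igfbp5 highest. Of 32 inflammatory genes Vcam1 was called, 9 were higher and 4 lower at an unadjusted p under 0.05 and the median was 0.40, with the chemokines Ccl2, Ccl7 and Cxcl1 highest. Without Aromhum mouse 3, 8 of 36 were called higher, against 143 of 7598 over all genes, and without any other mouse 0 or 1. Of 23 interferon-stimulated genes 0 were called (2 higher and 1 lower at an unadjusted p under 0.05, edgeR, median 0.35), with H2-D1, B2m and H2-K1 highest. The direction rested on Aromhum mouse 1, without which 2 had a positive and 21 a negative log2 fold change, the median was -0.38, 1 was called lower and 6 were lower at an unadjusted p under 0.05. Over all genes of that fit 6 were called lower and 534 of 7525 were lower at that unadjusted p. Without sub-cluster 5 the median was -0.17. Of 4 proliferation genes tested 0 were called, 2 were lower at an unadjusted p under 0.05 and the median was -0.63. Cartilage genes had 4 tested members, Comp and Chad among them, and 0 calls (1 lower at an unadjusted p under 0.05, edgeR, median -0.43). Called lower were 2 proliferation and 2 cartilage genes without Aromhum mouse 3, and 1 proliferation gene without WT mouse 1.

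Markers of other cell types differed between mice. The sum over 11 macrophage and monocyte markers was 10.5 to 16.2 CPM in WT and 258.5, 470 and 22.1 CPM in Aromhum tenocytes, led by Lyz2, C1qa and C1qb, and of these markers Lyz2 passed the filter on low counts and was not called. Leaving out Aromhum mouse 3, 6 of 7 tested were called higher, against 143 of 7598 over all genes. With no filter on low counts 6 of 11 were called higher, against 135 of 14768. Fibro-adipogenic markers summed to 8755 to 10995 CPM in WT and 6435 to 8853 CPM in Aromhum mice, mostly from Gsn, and 0 of 10 tested were called (4 higher and 1 lower at an unadjusted p under 0.05, edgeR). Glial markers summed to 465.5 to 724 CPM in WT and 279.6 to 514 CPM in Aromhum mice, mostly from Pmp22, with 0 of 3 tested called and 1 lower at an unadjusted p under 0.05 (edgeR). Of 7 endothelial markers tested 0 were called, 6 were lower at an unadjusted p under 0.05 and the median was -1.72. With no filter on low counts 7 of 10 were called lower, against 151 of 14768 over all genes. The fit with the replicate number as a block called 5 of 7 lower, against 195 of 7293. The sums of myonuclear genes were 61.4 to 878 CPM in WT and 42.0 to 55.2 CPM in Aromhum mice, with 3 of 3 tested lower at an unadjusted p under 0.05 and 0 called. With no filter on low counts 8 of 12 were called lower.

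Of the muscle stem cell list, Pax7 was at 0 UMIs, and Vcam1, called above, was 1 call of 3 tested, with Sdc4, Vcam1 and Chodl highest. Smooth muscle and pericyte markers summed to 177 to 538.5 CPM in WT and 349.5 to 639.5 CPM in Aromhum mice (0 of 5 called, 0 at an unadjusted p under 0.05, edgeR). T cell markers reached at most 3.59 CPM and mesothelial markers 34.7 CPM, and 0 genes of either list were tested. Erythroid and bone markers reached 46.0 and 43.0 CPM, with 1 and 2 genes tested and 0 called (1 bone gene higher and 1 lower at an unadjusted p under 0.05, edgeR). Cells whose tenocyte markers did not exceed each list of another cell type were left out as an alternative. The progenitor, cartilage and bone lists were not used for this. Then 771 cells remained and all 31 genes were still called. WT mouse 1 kept all its 135 cells, 6 of them in sub-cluster 6, so this limit did not remove all cells with endothelial genes.

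Whether the genotypes differed in the tenocytes as they did in other column groups of the same mice was tested as an interaction of column group and genotype, with mouse as a term in edgeR. The planned comparators were the Esr1-high group and the group with the highest summed level of Prg4, Angptl1, Tgfbi, Cpxm2 and Gas1. Both turned out to be column group 10, of 4638 cells, so they are 1 comparison. Apart from the tenocytes, Tgfbi was highest in column group 26 and Cpxm2 in column group 24. Whether column group 10 holds the study's candidate tenocyte progenitors was not tested. Column group 11, of 2590 cells, which had the highest summed level of Chodl and Cilp2, was not compared. Of 9951 genes tested, 162 (1.63%) differed in their genotype effect, 123 with a more positive and 39 with a more negative effect in tenocytes. The count was 103 without the mice of replicate number 1, 13 without number 2 and 248 without number 3.

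The 5 genes of smallest p were low in the Aromhum cells of column group 10. In tenocytes the genotypes overlapped for Clec11a, Wfdc1, Mylk and Ear1, and Myoc was less reduced. Clec11a, a secreted growth factor for bone-forming cells, was at 283, 288 and 341 CPM in WT and 335, 226 and 387 CPM in Aromhum tenocytes. In column group 10 it was at 79.2, 102 and 105 CPM in WT and 15.6, 10.7 and 18.9 CPM in Aromhum mice, and the difference of effects was 2.63 ± 0.14 SE on the log2 scale (adjusted p = 2.22e-05, edgeR). Myoc, the secreted protein myocilin, had 1225, 1577 and 1573 CPM in WT and 393, 369.5 and 801 CPM in Aromhum mice in tenocytes and 1446, 1728 and 1391 CPM in WT and 32.5, 33.3 and 126 CPM in Aromhum mice in column group 10. It was lower in the Aromhum mice in both, by far more in column group 10 (difference 3.21 ± 0.22 SE, adjusted p = 7.99e-05). The genotype effect on Myoc in tenocytes alone did not pass (log2 fold change -1.60 ± 0.29 SE, adjusted p = 0.0524).

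Wfdc1, a secreted protease inhibitor, Mylk, a myosin light chain kinase, and Ear1, an eosinophil-type ribonuclease, had differences of 3.33 ± 0.23, 2.32 ± 0.19 and 6.46 ± 0.56 SE on the log2 scale (adjusted p = 7.99e-05, 3.58e-04 and 4.76e-04, edgeR). Ear1 belongs to a family of near-identical genes, so its count is uncertain. Its tenocyte values were uneven, at 16.2, 14.9 and 48.5 CPM in WT and 3.59, 38.4 and 63.0 CPM in Aromhum mice. Of the 6 tenocyte markers 5 (not Kera) also differed in this test. In column group 10 Fmod was at means of 568.5 CPM in WT and 67.1 CPM in Aromhum mice, and Comp at 261 and 19.8 CPM. The tenocytes themselves had 5730 and 5189 CPM of Fmod. How far the WT and Aromhum cells of column group 10 are the same kind of cell was not tested.

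Against column group 8, of 15700 cells, chosen as a comparator after the data were seen, only Wfdc1 differed among 11970 genes tested (0.00835%), and 820 had an unadjusted p under 0.05. Wfdc1 was at 43.5, 65.0 and 74.4 CPM in WT and 52.7, 49.2 and 119.6 CPM in Aromhum mice in tenocytes and 14.1, 24.7 and 29.4 CPM in WT and 7.18, 6.43 and 16.2 CPM in Aromhum mice in column group 8 (difference 1.33 ± 0.17 SE on the log2 scale, adjusted p = 0.0443, edgeR). The count was 1, 0 and 200 without the mice of replicate numbers 1, 2 and 3. Of the 6 tenocyte markers 0 differed, with differences from 0.37 (Wif1) to 1.55 (Comp) on the log2 scale.

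**Figure D5:**
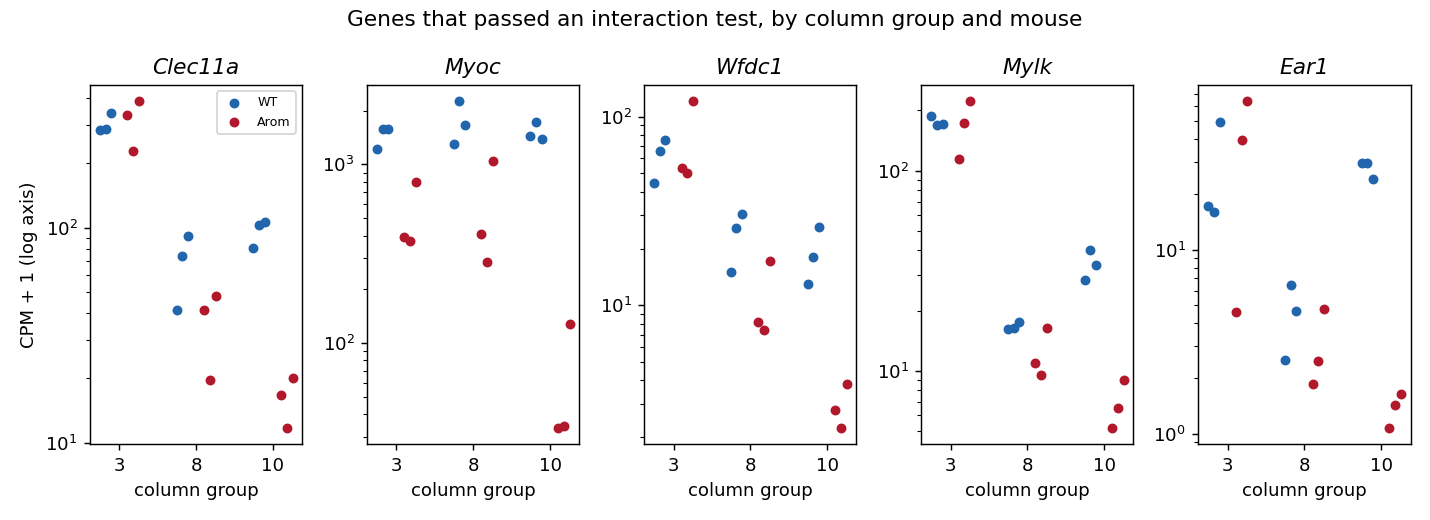
CPM plus 1 (log axis) of the 5 genes of smallest p in the interaction test, in column groups 3 (tenocytes), 8 and 10, for each WT (blue) and Aromhum (red) mouse. In column group 10 the Aromhum points lie far below the WT points, while in column group 3 they overlap them for Clec11a, Wfdc1, Mylk and Ear1.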

How the data were processed

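The authors deposited a table of raw UMI counts, made by them with Cell Ranger 3.0.2 against mm10, with 16494 genes and 63647 barcodes from 3 WT and 3 Aromhum mice, 1 mouse a library. Every column could be given a sample from its prefix (0 columns not mapped). Whether strand was used in counting is not given in the sources used here.

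Barcodes of column runs 13 to 18 were kept unless they had under 1000 UMIs or over 10% of UMIs in mitochondrial genes. The total per mouse was 833471 to 2174810 UMIs, so CPM of genes with few UMIs are imprecise. The members and gene lists were chosen with earlier results of these data known. UMIs were summed per mouse and tested with edgeR 4.0.16 (R 4.3.3; quasi-likelihood test, TMM size factors, filterByExpr, Benjamini-Hochberg over all genes tested, threshold 0.05). Interactions had column group by genotype with mouse as a term. P-values of the genotype test set the genotype difference against the spread between mice of a genotype. Those of the interactions set it against the spread between mice in the difference of the column groups. CPM are UMIs per 1000000 UMIs of the cells and carry no TMM factor, while log2 fold changes do. edgeR's test gives no SE. The SE printed is the size of the log2 fold change divided by the square root of the test's F statistic, so it is approximate. The study compared cells, which are not replicates, so sums were used here. Sub-clusters were made in scanpy 1.11.5 with leidenalg 0.10.2 (2000 variable genes, 20 components, 20 neighbors, resolution 0.4). Doublets were kept, and leaving out those marked by Scrublet was an alternative. Scrublet marked 0 barcodes in 2 of the 6 libraries, where it did not work, and 2.04% to 3.31% in the others. Alternatives used DESeq2 1.42.0 and limma 3.58.1. Promoter sequences and gene starts came from RefSeq (GRCm38.p6) and gene coordinates from the mm10 annotation.

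Named were the 6 markers, the 12 called genes of smallest p in each direction, the called members of each list and its 3 members of highest CPM, the 20 genes of largest ratio to other column groups among those of at least 50 CPM, the 5 genes of smallest p in each interaction and the 8 leading genes of each sub-cluster. The other called genes and Scx, Mkx, Col5a1, Adamts2, Plod2, Vcan, Junb, Esr1, Greb1, Timp1 and Mmp3 were named after their values were seen. A gene that this rule would name is not reported here. The steps were tested on simulated counts. All simulated mice were drawn around the same mean profile, so no mouse stood apart. The column groups were drawn independently, so they shared no mouse effect. For the genotype effect, with 7343 genes tested, 42.4%, 96.4% and 100% of genes changed by 1, 2 and 3 on the log2 scale were recovered, and 12 unchanged genes were called. For the interactions the shares were 13.4%, 70.1% and 92.4% with column group 10 (10020 genes, 5 unchanged genes called) and 16.4%, 91.0% and 93.9% with column group 8 (11998 genes, 17 unchanged genes called).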

Additional observations from a re-analysis of the deposited data

Results flagged for a closer look

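For 5 genes the genotype effect in the tenocytes differed from that in column group 10 by the interaction test (edgeR, Aromhum over WT, difference of log2 fold changes). The difference was 2.63 for Clec11a, 3.21 for Myoc, 3.33 for Wfdc1, 2.32 for Mylk and 6.46 for Ear1. Against column group 8 the difference for Wfdc1 was 1.33.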

How the results depend on the processing

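The tenocyte counts of 12 higher and 19 lower genes became 64 and 95 with DESeq2, where 30 of the 31 genes were still called, and 135 and 151 with no filter on low counts. They became 0 and 0 with the study's limits, where 3261 genes were tested, and 0 and 1 after thinning to 1000 UMIs, where 1650 were tested. Leaving out cells with other markers gave 34 lower genes, and leaving out sub-cluster 5 gave 32. Leaving out sub-cluster 4 gave 8 higher and 19 lower genes, and leaving out sub-cluster 6 gave 12 and 16. Leaving out 1 mouse gave 1 to 143 higher and 1 to 111 lower genes. The interaction count of 162 with column group 10 became 26 with limma voom and 429 with no filter, and 13 to 248 without 1 replicate number. The count of 1 with column group 8 became 0 with limma voom (491 at an unadjusted p under 0.05), 87 with no filter, 4 without sub-clusters 4, 5 and 6, and 0 to 200 without 1 replicate number (512 at an unadjusted p under 0.05 without number 2). The causes were not tested. The difference in the share of tenocytes ran from -0.266 to 0.457 percentage points without 1 mouse. The sub-cluster alternatives, the list counts under alternatives and column group 8 were chosen after the data were seen. For single genes 511 alternative values kept their direction and side of the threshold, 186 kept the direction only, 10 passed the threshold newly and 0 reversed.

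With the replicate number as a block, 118 genes were higher and 195 lower, and all 31 genes were still called. Without sub-clusters 4, 5 and 6 the block gave 108 and 166. Wif1 and Tnmd passed under the block (adjusted p = 0.00910 and 0.0254, edgeR). The labels do not tie the numbers to a date or litter, and the deviations of same-numbered mice correlated with r of 0.202, 0.0642 and 0.256, so the numbers were not taken to pair the mice. Of the 6 mice 5 correlated best with their own number, which is a hint from the data and not the design. The difference in share is 0.0946 percentage points under the pairing by construction, because the mean of paired differences equals the difference of the means. An exact sign-flip permutation test gave p = 0.75, and 3 pairs allow it few outcomes.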
